A study of Mus musculus with 12 samples.

Results

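Fatty acid desaturases and elongases set the chain length and the number of double bonds of the fatty acids that a cell builds into membranes and stored lipid. The genes described here are 9 family members chosen by name, with earlier results of these data known, of 26855 genes in the count table. They are the stearoyl-CoA desaturases Scd1 and Scd2, the polyunsaturated fatty acid desaturases Fads1, Fads2 and Fads3, and the elongases Elovl1, Elovl5, Elovl6 and Elovl7. All 9 were among the 12625 genes that passed the filter on low counts and were tested. The cells were mouse macrophages labelled as alveolar macrophages, washed from the airspaces (bronchoalveolar lavage) of mice on day 14 after bleomycin. Instilled bleomycin damages the lung and leads to scarring. The submitters' design describes filtration by cell size, then sorting by side scatter, a measure of granularity, and by BODIPY, a dye for neutral lipid. The groups are titled UPBIG, UPSMALL and DOWN; each holds 4 libraries of amplified full-length cDNA, and all are from bleomycin-treated mice, with no uninjured lung among the samples. The labels name neither the strain, sex, age nor number of mice, and the size fraction and sorting gate behind each title are not spelled out. Nor do they tie the 4 libraries of a group to different animals, so p-values refer to the spread between libraries, which may be technical.

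Saturated fatty acids such as palmitate and stearate receive their first double bond from a stearoyl-CoA desaturase, which yields the palmitoleate and oleate of phospholipids, cholesteryl esters and triglycerides. Dietary linoleic and alpha-linolenic acid enter a separate route in which FADS2, the elongase ELOVL5 and FADS1 act in turn to make arachidonic and eicosapentaenoic acid, the precursors of eicosanoids. In macrophages the sterol-sensing liver X receptors and the transcription factor SREBP-1c are known to raise the transcription of several of these genes, Scd1 among them.

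All 9 enzymes are membrane proteins of the endoplasmic reticulum with histidine-rich motifs. In the Scd and Fads desaturases such motifs hold the metal of the active site. The coding sequence around one motif of each gene is shown to let the 3 families be compared. Each window holds 45 bases of the coding strand, read from the mouse transcripts of the GENCODE annotation of GRCm38 (mm10). Capitals mark the codons of the motif, which encode histidine, 2 variable residues and a pair of histidines in Scd and Elovl genes, and start with glutamine in Fads genes.
Scd1: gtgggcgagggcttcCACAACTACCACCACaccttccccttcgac
Scd2: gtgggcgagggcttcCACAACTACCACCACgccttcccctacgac
Fads1: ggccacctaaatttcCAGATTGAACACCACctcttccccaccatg
Fads2: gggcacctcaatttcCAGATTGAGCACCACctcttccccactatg
Fads3: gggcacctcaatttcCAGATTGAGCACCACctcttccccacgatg
Elovl1: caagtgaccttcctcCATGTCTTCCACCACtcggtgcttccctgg
Elovl5: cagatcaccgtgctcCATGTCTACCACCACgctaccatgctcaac
Elovl6: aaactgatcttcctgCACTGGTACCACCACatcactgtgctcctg
Elovl7: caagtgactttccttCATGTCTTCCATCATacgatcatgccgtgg
The Scd1 and Scd2 windows differed at 2 of 45 bases, the Fads2 and Fads3 windows at 1, and the Elovl1 and Elovl6 windows at 20. Over the complete coding sequence Scd1 and Scd2 were 89.6% identical, Fads2 and Fads3 69.8%, and Elovl1 and Elovl7 62.6%. Scd1 and Scd2 lie on chromosome 19 with 87.6 kb between them, Scd1 at chr19:44394455-44407879 on the minus strand and Scd2 at chr19:44293674-44306864 on the plus strand. Fads1, Fads2 and Fads3 form a second cluster on the same chromosome, with 2.7 kb between Fads2 and Fads3. Of all runs of 50 bases in Scd1 transcripts, 4.56% also occurred in Scd2, Scd3 or Scd4, and 3.97% of those in Scd2 occurred in its relatives. Reads from such stretches could be assigned to either gene. The share was 3.98% for Elovl6 and at most 0.152% for the others. Elovl1 overlaps Cdc20 on the opposite strand, and whether counting used strand is not given in the sources used here; Cdc20 had 618 counts over the 12 libraries.

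Library totals ranged from 17109669 to 23282621 expected counts, and levels are given as CPM, the count divided by the scaled total. The scaling factors were 0.858 to 0.896 in UPBIG, 0.992 to 1.17 in UPSMALL and 1.03 to 1.16 in DOWN. Without them, using library totals alone, the median log2 fold change of all tested genes moved from -0.03 to -0.36 between UPBIG and DOWN and from -0.03 to -0.31 between UPBIG and UPSMALL, so small differences are differences relative to the other genes. All 10 alveolar macrophage markers had counts in every group, with a summed level of 9440 to 12700 CPM in UPBIG, 9760 to 14800 in UPSMALL and 7520 to 11500 in DOWN. Chil3 made up most of that sum, at 7920 ± 1410 CPM in UPBIG, 9670 ± 2160 in UPSMALL and 7470 ± 1760 in DOWN (SD, n = 4). Of the 10, 5 were called higher in UPBIG than in DOWN, against 9.03% of all tested genes, and 1 lower, against 8.48%. Among those higher were Fabp4 (log2 fold change 2.57) and Marco (2.01), and the lower one was Car4 (-2.29). Between UPSMALL and DOWN, 3 of the 10 were called higher, against 0.594% of all genes. Among markers of other leukocytes, 3 of 6 monocyte-derived genes were called lower in UPBIG than in DOWN. So were 5 of 6 T and NK cell and 4 of 6 dendritic cell genes, against 8.48% of all tested genes. Lower in UPBIG than in UPSMALL were 2 monocyte-derived and 1 dendritic cell genes, against 2.49% of all genes. Lower in UPSMALL than in DOWN were 2 monocyte-derived, 3 T and NK cell and 1 dendritic cell genes, against 0.547%. The 6 monocyte-derived markers summed to 315 to 561 CPM in UPBIG, 590 to 861 in UPSMALL and 772 to 851 in DOWN, the 6 T and NK cell markers to 1.93 to 6.97 in UPBIG, 0.955 to 6.90 in UPSMALL and 23.5 to 84.9 in DOWN, and the 6 dendritic cell markers to 2.55 to 6.21 in UPBIG, 4.15 to 13.6 in UPSMALL and 30.4 to 69.3 in DOWN. Of the 5 neutrophil markers, Ly6g was absent from the deposited counts. The others summed to 365 to 400 CPM in UPBIG, 158 to 217 in UPSMALL and 128 to 173 in DOWN. Nearly all of that was S100a8, at 375 CPM in UPBIG, 169 in UPSMALL and 128 in DOWN, while S100a9 (log2 fold change -1.50 ± 1.12 between UPBIG and DOWN) and Csf3r (-0.27 ± 0.20) were not called. The 4 B cell markers summed to 0.750 to 8.22 CPM in UPBIG, 1.75 to 6.81 in UPSMALL and 0.0433 to 17.5 in DOWN, with overlap. The part of these other cell types in the differences below was not tested, and in these sorted pools fewer cells of a type and less RNA per cell cannot be told apart.

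Of the 9 genes, Scd1 was higher and Fads1 lower in UPBIG than in DOWN. Scd1 was also higher in UPBIG than in UPSMALL and in UPSMALL than in DOWN, and the other 7 genes did not pass the test in any of these comparisons. A call means an adjusted p under 0.05 in edgeR's quasi-likelihood test with Benjamini-Hochberg adjustment over all 12625 genes. Between UPBIG and DOWN, 1 of the 9 was called higher, where 9.03% of all tested genes were, and 1 lower, where 8.48% were. With 9 genes, these shares are near the background and are no result about the family. Between UPBIG and UPSMALL, 1 of the 9 was called higher, against 3.22% of all genes. None was called lower there, against 2.49% of all genes; at an unadjusted p under 0.05, 2 were lower, Fads1 and Fads2, which DESeq2 called, and limma-voom called 1 of them, Fads1. Between UPSMALL and DOWN, 1 was called higher, against 0.594% of all genes. None was called lower by edgeR, DESeq2 or limma-voom, or at an unadjusted p under 0.05, against 0.547% of all genes by edgeR. In a joint test for any difference among the 3 groups, 2 of the 9 were called, against 13.8% of all genes. The median log2 fold change of the 9 was -0.08 between UPBIG and DOWN, -0.48 between UPBIG and UPSMALL and 0.00 between UPSMALL and DOWN, beside -0.03, -0.03 and 0.00 over all genes tested. The comparisons share libraries, so their values are not independent. The gene called higher was Scd1 in each of them, and the 9 genes were chosen with earlier results of these data known. The counts of calls are therefore no result about the family in any comparison.

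**Figure D1:**
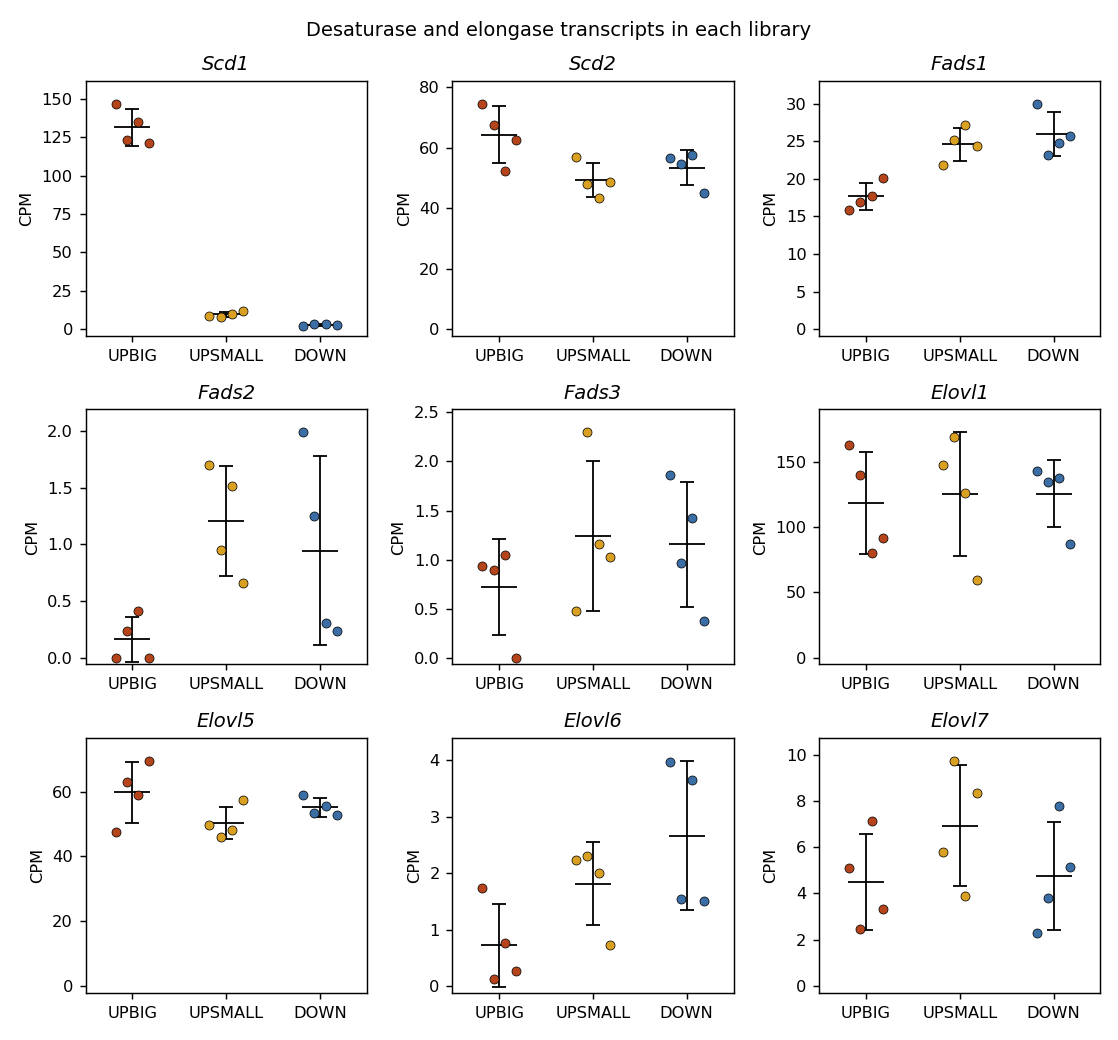
Expression of the 9 desaturase and elongase genes in CPM (vertical axes, linear, each with its own range) in the 4 libraries of UPBIG, UPSMALL and DOWN. Points are libraries, and horizontal ticks with bars are the mean and SD; the 4 UPBIG libraries stand apart for Scd1, at 121 to 147 CPM, and lie below all others for Fads1.

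Scd1 supplied the largest difference among these genes. Its level was 147, 123, 135 and 121 CPM in the UPBIG libraries, 8.87, 7.90, 10.1 and 11.8 CPM in the UPSMALL libraries and 2.08, 3.37, 3.30 and 2.78 CPM in the DOWN libraries. The ranges of the 3 groups did not overlap. Behind these levels stood 8505 counts over the UPBIG libraries, 872 over UPSMALL and 242 over DOWN. The log2 fold change was 5.52 ± 0.18 (SE) between UPBIG and DOWN, a 45.9-fold difference with edgeR adjusted p = 2.15e-13, and Scd1 had the smallest p of all 12625 genes. Between UPBIG and UPSMALL it was 3.77 ± 0.16 (adjusted p = 3.32e-11 by edgeR), again the smallest p. Between UPSMALL and DOWN it was 1.75 ± 0.17, or 3.36-fold (edgeR adjusted p = 1.77e-05).

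The steps between the groups were unequal for Scd1. On the log2 scale UPSMALL lay 1.01 ± 0.14 below the midpoint of UPBIG and DOWN (log2 difference -1.01, edgeR adjusted p = 0.00251), so UPSMALL was nearer to DOWN. Among the 9 genes it was the one called lower by this test, against 0.0871% of all genes. This count of 1 is no result about the family. None was called higher by edgeR, DESeq2 or limma-voom, against 0.158% of all genes by edgeR; 1 gene, Fads2, was higher at an unadjusted p of 0.0452 in the edgeR test. Some libraries held transcripts of lung epithelium, whose type 2 cells also make Scd1. Of the 8 type 2 cell markers, Slc34a2 was absent from the deposited counts. The others summed to 23.9 to 75.1 CPM in UPBIG, 76.3 to 79.8 in UPSMALL and 91.0 to 117 in DOWN. Napsa set the direction of that sum, at 27.3 CPM in UPBIG, 65.1 in UPSMALL and 95.2 in DOWN. Of 4 tested, 2 were called lower in UPBIG than in DOWN, against 8.48% of all genes. They were Napsa (log2 fold change -1.80) and Etv5 (-1.63), while Abca3 (-0.29) and Sftpc (3.53 ± 1.78) were not called. The surfactant gene Sftpa1 had 68 counts over UPBIG, 15 over UPSMALL and 11 over DOWN. Within UPBIG it was highest in replicate 3, at 3.16 CPM, against at most 0.598 in the others. The 4 airway secretory markers summed to 21.6 to 252 CPM in UPBIG, 12.8 to 48.3 in UPSMALL and 6.98 to 15.5 in DOWN. Sftpc, another surfactant gene, stood at 42.7 CPM in UPBIG replicate 3, against at most 1.32 CPM in the other 11 libraries, and the club cell gene Scgb1a1 at 212 CPM in UPBIG replicate 2. Scd1 was 135 CPM in UPBIG replicate 3 and 123 CPM in UPBIG replicate 2, and the part of epithelial RNA in its level was not tested. With each library left out in turn, the Scd1 log2 fold change between UPBIG and DOWN was 5.40 to 5.62.

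Scd2 encodes the stearoyl-CoA desaturase isoform that is widespread outside the liver. It stood at 74.5, 67.5, 52.3 and 62.6 CPM in UPBIG, 56.8, 48.0, 43.3 and 48.7 CPM in UPSMALL and 56.4, 54.5, 57.5 and 45.1 CPM in DOWN. The groups overlapped. Its log2 fold change was 0.27 ± 0.13 between UPBIG and DOWN (edgeR adjusted p = 0.183) and 0.38 ± 0.13 between UPBIG and UPSMALL (edgeR adjusted p = 0.101). With library totals alone the first became -0.05.

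The pair therefore differed in which isoform had more counts per length. Divided by the length of its exons, Scd1 made up 68.9%, 67.0%, 74.3% and 68.4% of the summed Scd1 and Scd2 level in the UPBIG libraries. In UPSMALL its share was 14.8%, 15.5%, 20.6% and 21.3%, and in DOWN 3.95%, 6.46%, 6.02% and 6.45%. Scd2 was thus the more abundant isoform in all 8 UPSMALL and DOWN libraries, and Scd1 in all 4 UPBIG libraries. The summed level per kb was 38.7 ± 3.44 CPM in UPBIG, 11.0 ± 0.997 in UPSMALL and 10.4 ± 1.05 in DOWN (SD, n = 4). Within a library, the log2 ratio of Scd1 to Scd2 counts does not depend on the scaling. It averaged 1.04 ± 0.22 in UPBIG, -2.36 ± 0.33 in UPSMALL and -4.22 ± 0.36 in DOWN (SD, n = 4). The difference was 5.26 between UPBIG and DOWN, 3.40 between UPBIG and UPSMALL and 1.86 between UPSMALL and DOWN. Two-sided exact permutation gave p = 0.0286 for each, which is the lower limit with 4 libraries a group, and 0.0643 after Benjamini-Hochberg adjustment over 9 such tests.

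**Figure D2:**
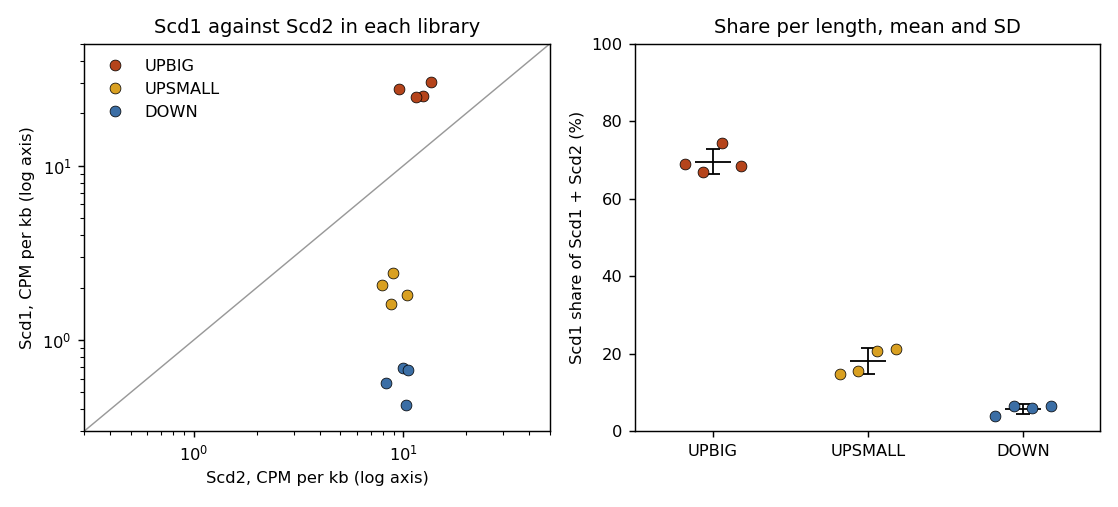
Left, Scd1 against Scd2 in each library, both in CPM per kb on log axes, with the line of equal level; right, the share of Scd1 in their sum, in percent, with mean and SD of 4 libraries. Scd2 spans a narrow range while Scd1 separates UPBIG, UPSMALL and DOWN, and its share is 69.6%, 18.1% and 5.72% on average.

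Fads1, the desaturase that completes arachidonic and eicosapentaenoic acid, was lower in UPBIG than in DOWN. Its level was 15.9, 16.9, 17.7 and 20.1 CPM in UPBIG, 21.8, 25.1, 27.1 and 24.3 CPM in UPSMALL and 30.0, 23.2, 24.8 and 25.7 CPM in DOWN. Every UPBIG library lay below every library of the other groups, while UPSMALL and DOWN overlapped. The log2 fold change was -0.55 ± 0.14 between UPBIG and DOWN (edgeR adjusted p = 0.0101, a 1.46-fold difference) and -0.48 ± 0.14 between UPBIG and UPSMALL (edgeR adjusted p = 0.0549). Between UPSMALL and DOWN it was -0.08 ± 0.14. The joint test called Fads1 (edgeR adjusted p = 0.0225), but no longer when UPBIG replicate 1, 2 or 3 or DOWN replicate 1 was left out.

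Fads2, which performs the entry step of the same route, was close to the limit of detection. The UPBIG libraries held 0, 4, 7 and 0 counts of Fads2, the UPSMALL libraries 32, 19, 34 and 18 and the DOWN libraries 46, 26, 6 and 5. In CPM, UPBIG lay between 0 and 0.410, UPSMALL between 0.661 and 1.70 and DOWN between 0.236 and 1.99, so UPBIG overlapped with DOWN and not with UPSMALL. Its log2 fold change was -2.47 ± 0.97 between UPBIG and DOWN (edgeR adjusted p = 0.0864) and -2.81 ± 0.97 between UPBIG and UPSMALL (edgeR adjusted p = 0.103). Both passed the threshold by DESeq2 (adjusted p = 0.0408 and 0.0329) and with library totals alone (0.0355 and 0.0421), and the first also without UPBIG replicate 3 (0.0492). The first did not pass in the other 15 of 18 alternatives, nor the second in the other 17 of 19. Fads3, the neighbour of Fads2 and the least well known of the 3, had 48 counts over UPBIG, 109 over UPSMALL and 99 over DOWN. Its log2 fold change was -0.67 ± 0.78 between UPBIG and DOWN and -0.77 ± 0.78 between UPBIG and UPSMALL.

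Fads1 was the main member of its cluster in every group. The log2 ratio of Fads1 to Fads2 averaged 7.38 ± 2.01 in UPBIG, 4.41 ± 0.65 in UPSMALL and 5.24 ± 1.40 in DOWN (SD, n = 4). It differed by 2.96 between UPBIG and UPSMALL, with no overlap (two-sided exact permutation p = 0.0286, adjusted p = 0.0643). Between UPBIG and DOWN it differed by 2.14 with overlap (exact permutation p = 0.171). These ratios rest on few Fads2 counts.

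Elovl1, which extends saturated and monounsaturated fatty acids to the very long chains of sphingolipids, was the most abundant of the 9 per length. It stood at 163, 140, 80.4 and 91.6 CPM in UPBIG, 148, 169, 126 and 59.5 CPM in UPSMALL and 143, 135, 138 and 87.3 CPM in DOWN. The groups overlapped and the spread within each was wide. The log2 fold change was -0.08 ± 0.32 both between UPBIG and DOWN and between UPBIG and UPSMALL, and its sign turned when single libraries were left out. Cdc20, on the other strand of the same locus, was at 0.862 to 5.73 CPM over the 12 libraries.

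Elovl5, the elongase of the polyunsaturated route between FADS2 and FADS1, did not pass the test in any comparison. Its level was 47.4, 63.0, 59.1 and 69.6 CPM in UPBIG, 49.7, 45.9, 48.3 and 57.5 CPM in UPSMALL and 59.1, 53.3, 55.5 and 52.7 CPM in DOWN. The groups overlapped. In log2 terms the fold change was 0.12 ± 0.13 between UPBIG and DOWN (edgeR adjusted p = 0.601) and 0.25 ± 0.13 between UPBIG and UPSMALL, and with library totals alone they became -0.21 and -0.04. The log2 ratio of Elovl5 to Elovl1 averaged -0.94 ± 0.66 in UPBIG, -1.22 ± 0.81 in UPSMALL and -1.16 ± 0.29 in DOWN (SD, n = 4), with exact permutation p of 0.600 to 0.914. In each group this log2 ratio was highest in the library numbered 4, at -0.40 in UPBIG, -0.05 in UPSMALL and -0.73 in DOWN. In UPBIG, replicate 3 was close to it, at -0.44.

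Elovl6, which turns palmitate into stearate and so supplies the substrate of stearoyl-CoA desaturase, was scarce. The UPBIG libraries held 28, 2, 13 and 4 counts of Elovl6, the UPSMALL libraries 42, 46, 45 and 20 and the DOWN libraries 92, 32, 72 and 32. In CPM these were 0.120 to 1.74 in UPBIG, 0.734 to 2.30 in UPSMALL and 1.51 to 3.98 in DOWN, with overlap. The log2 fold change was -1.87 ± 0.66 between UPBIG and DOWN (edgeR adjusted p = 0.0561) and -1.31 ± 0.65 between UPBIG and UPSMALL (edgeR adjusted p = 0.307). The first passed the threshold by DESeq2 (adjusted p = 0.0233), by limma-voom (0.0268), with no low-count filter (0.0202) and with library totals alone (0.0156). It also passed with a replicate block, without UPBIG replicate 1, the UPBIG library with the most Elovl6, at -2.76, and without UPSMALL replicate 4 or DOWN replicate 4. In the other 11 of 19 alternatives it did not pass, with edgeR adjusted p up to 0.153. Elovl7, a long-chain elongase, stood at 2.45 to 7.15 CPM in UPBIG, 3.87 to 9.74 CPM in UPSMALL and 2.29 to 7.76 CPM in DOWN. Its log2 fold change was -0.07 ± 0.39 between UPBIG and DOWN and -0.62 ± 0.39 between UPBIG and UPSMALL, neither past the threshold.

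**Figure D3:**
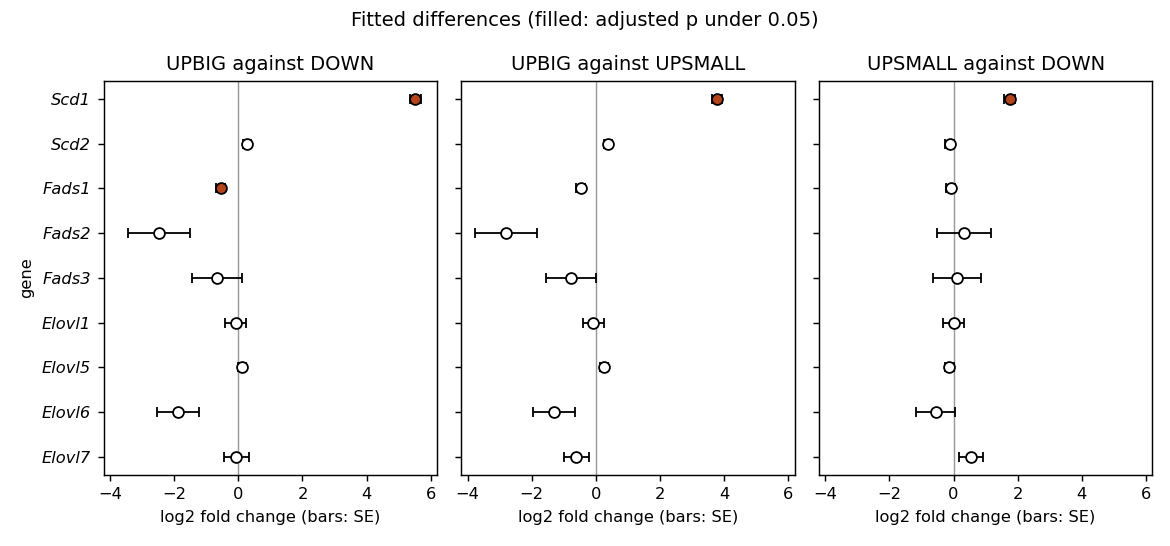
Log2 fold change of each gene (horizontal axes) with its SE in UPBIG against DOWN, UPBIG against UPSMALL and UPSMALL against DOWN; filled points passed an adjusted p of 0.05. Scd1 is filled in all 3 panels, at 5.52, 3.77 and 1.75, and Fads1 in the first, while Fads2 and Elovl6 lie left of 0 with wide errors in the first and second panels.

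Per length of exon, the order of levels changed with the group mainly through Scd1. In UPBIG the mean levels were 43.6 CPM per kb for Elovl1, 26.9 for Scd1, 17 for Elovl5, 11.8 for Scd2, 3.67 for Fads1 and 1.12 for Elovl7, and under 0.2 for Fads3, Elovl6 and Fads2. The libraries of Elovl1 and Scd1 overlapped there, as did those of Elovl5 and Scd2. In UPSMALL the order was Elovl1 at 46.0, Elovl5 at 14.3, Scd2 at 9.01, Fads1 at 5.11, Scd1 at 1.97 and Elovl7 at 1.73 CPM per kb, with overlap of Scd1 and Elovl7. In DOWN it was Elovl1 at 46.1, Elovl5 at 15.7, Scd2 at 9.77, Fads1 at 5.39, Elovl7 at 1.18 and Scd1 at 0.589 CPM per kb. From Elovl7 through Scd1, Elovl6 and Fads3 to Fads2, each gene overlapped there with the next in the order. Scd1 thus had rank 2 of 9 in UPBIG, rank 5 in UPSMALL and rank 6 in DOWN. In none of the groups did Scd1 reach the mean level per kb of Elovl1.

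The closest patterns to that of Scd1 were sought among 6793 genes whose log2 CPM averaged 3 or more, by the root-mean-square difference of centred log2 CPM over the 12 libraries. The nearest was Apoc1, an apolipoprotein gene, with a difference of 0.53 and levels of 306 ± 78.9 CPM in UPBIG, 42.7 ± 6.28 in UPSMALL and 12.2 ± 2.64 in DOWN (SD, n = 4). Acot1, a thioesterase that releases fatty acids from coenzyme A, followed at 0.82, then the chemokine receptor gene Cxcr1 at 0.92, the monoglyceride lipase gene Mgll at 1.05 and the acyltransferase gene Awat1 at 1.06. For Fads1 the nearest were Alox5ap, which encodes the protein that presents arachidonic acid to its lipoxygenase, at 0.10, Fxyd5 at 0.12, Slk and Plp2 at 0.13 each and Naa16 at 0.14. Distances are smaller for genes that vary little, so those of Scd1 and Fads1 are not on a common footing.

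Other members of the families were scarce or did not pass the test. The desaturase genes Scd3, Scd4 and Fads6 and the elongase genes Elovl2, Elovl3 and Elovl4 were below the filter, with at most 24 counts over the 4 libraries of a group. The ceramide desaturases Degs1 and Degs2 were tested. Degs1 stood at 260 ± 18.4 CPM in UPBIG, 210 ± 20.7 in UPSMALL and 213 ± 26.3 in DOWN (SD, n = 4), with a log2 fold change of 0.29 ± 0.11 between UPBIG and DOWN (edgeR adjusted p = 0.0847). Degs2 stood at 1.99 ± 0.301 CPM in UPBIG, 1.84 ± 0.571 in UPSMALL and 1.45 ± 0.341 in DOWN (SD, n = 4), with a log2 fold change of 0.46 ± 0.43 between UPBIG and DOWN.

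Genes whose proteins work beside the desaturases and elongases follow, and their counts between UPBIG and DOWN stand against the 9.03% of all tested genes called higher and the 8.48% called lower. The lists hold 5 to 13 tested genes, so 1 or 2 calls in a direction are read as no result about a list. Elongation needs 3 further enzymes, a ketoacyl reductase, a dehydratase and an enoyl reductase. Of 6 such genes, 1 was called between UPBIG and DOWN (median log2 fold change -0.01): Hacd1, a dehydratase gene known from muscle, was higher by 1.38 ± 0.28 (edgeR adjusted p = 0.00165). Hsd17b12, the ketoacyl reductase, was at -0.46 ± 0.13 between UPBIG and UPSMALL (edgeR adjusted p = 0.0439), a call that ended in 13 of 20 alternatives, and at -0.38 ± 0.13 between UPBIG and DOWN (adjusted p = 0.0541). Tecr, the enoyl reductase, was at -0.06 ± 0.15 between UPBIG and DOWN. Desaturases draw electrons from cytochrome b5 and its reductases. Of 5 such genes tested, Cyb5r3, a reductase, and Cyb5a, a cytochrome b5, were called higher in UPBIG than in DOWN, by 0.69 ± 0.17 and 0.32 ± 0.11, and Cyb5b lower, at -0.36 ± 0.12 (edgeR adjusted p = 0.00934, 0.0452 and 0.0498). With library totals alone Cyb5r3 became 0.38 and Cyb5a 0.00, neither called; the call of Cyb5a ended in 10 of 20 alternatives and that of Cyb5b in 13 of 20.

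Of 5 tested genes that supply palmitate, 3 were called lower in UPBIG than in DOWN, against 8.48% of all genes, and none higher. Between UPBIG and UPSMALL 1 of the 5, Fasn, was called lower, against 2.49%. The list was chosen with earlier results of these data known, so these counts are descriptive. Fasn, the fatty acid synthase, stood at 14.3 ± 2.08 CPM in UPBIG, 24.0 ± 5.93 in UPSMALL and 23.7 ± 2.13 in DOWN (SD, n = 4), a log2 fold change of -0.73 ± 0.18 against DOWN and -0.75 ± 0.18 against UPSMALL (edgeR adjusted p = 0.00740 and 0.0160). Acss2, which makes acetyl-CoA from acetate, was at -2.10 ± 0.50 and Acly, which makes it from citrate, at -0.42 ± 0.12 against DOWN (adjusted p = 0.00614 and 0.0219 by edgeR). The Fasn call against UPSMALL ended without UPBIG replicate 2 or UPSMALL replicate 1, and the Acly call without UPBIG replicate 1 or 2 or DOWN replicate 1 or 3. The remaining tested genes were Acaca, the acetyl-CoA carboxylase, at -0.01 ± 0.26, and Me1, a source of NADPH, at 1.39 ± 0.48 with edgeR adjusted p = 0.0502. The median of the 5 was -0.42. The acyl-CoA synthetases and transporters that activate fatty acids gave 2 higher, Acsl1 at 0.57 ± 0.15 and Slc27a1 at 0.49 ± 0.16, and 1 lower, Acsl3 at -1.24 ± 0.40, of 7 tested in the same comparison (median 0.32); with library totals alone neither higher call held, at 0.24 and 0.16. The calls of Slc27a1 and Acsl3 also ended when single libraries were left out, in 8 of 20 and 8 of 19 alternatives in all.

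Of 8 phospholipid acyltransferase genes, which use the products, 2 were called higher between UPBIG and DOWN and the median was negative, at -0.19. Lpcat3, which places polyunsaturated fatty acids into phospholipids, stood at 61.9 ± 5.70 CPM in UPBIG, 38.9 ± 5.15 in UPSMALL and 33.9 ± 4.37 in DOWN (SD, n = 4), higher by 0.87 ± 0.13 than in DOWN and 0.67 ± 0.13 than in UPSMALL (edgeR adjusted p = 0.000144 and 0.00383). Against UPSMALL it became 0.40 and was not called with library totals alone. Agpat3 was higher by 1.25 ± 0.20 than in DOWN (edgeR adjusted p = 0.000253). Peroxisomes shorten very-long-chain and some polyunsaturated fatty acids. Of genes of that route, Hsd17b4 was higher than in DOWN by 0.81 ± 0.11 and Scp2 by 0.31 ± 0.10 (edgeR adjusted p = 4.99e-05 and 0.0443). With library totals alone Hsd17b4 was 0.48 and still called, and Scp2 was -0.01; the call of Scp2 ended in 10 of 20 alternatives. Hsd17b4 was also higher than in UPSMALL, by 0.44 ± 0.11 (edgeR adjusted p = 0.0225), a call lost in 5 of 20.

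Of 13 tested genes that regulate this transcription, 2 were higher and 2 lower in UPBIG than in DOWN (median 0.27). Nr1h3, which encodes liver X receptor alpha, stood at 35.7 ± 3.60 CPM in UPBIG, 29.1 ± 2.59 in UPSMALL and 20.4 ± 2.71 in DOWN (SD, n = 4), higher than in DOWN by 0.81 ± 0.14 (edgeR adjusted p = 0.000422). Srebf1, which encodes SREBP-1, was at 0.62 ± 0.20 (adjusted p = 0.0401 by edgeR), a call that ended in 7 of 20 alternatives, among them library totals alone, with 0.29. Srebf2, the gene of the sterol-controlled SREBP-2, stood at 9.14 ± 1.22 CPM in UPBIG, 27.1 ± 3.56 in UPSMALL and 31.6 ± 2.94 in DOWN (SD, n = 4), lower by a log2 fold change of -1.79 ± 0.15 against DOWN and -1.56 ± 0.15 against UPSMALL (edgeR adjusted p = 1.40e-07 and 1.92e-06). Insig1, which retains SREBPs in the endoplasmic reticulum and is itself their target, was at -1.40 ± 0.29 and -1.51 ± 0.29 in these comparisons (edgeR adjusted p = 0.00228 and 0.00301). The other 9 did not pass in either comparison. Against DOWN they were Nr1h2 at -0.23, Mbtps1 at -0.14, Scap at 0.07, Insig2 at 0.12, Mbtps2 and Rxrb at 0.27, Rxra and Pparg at 0.31 and Ppard at 0.40.

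Genes listed as targets of these regulators outside the fatty acid families follow. Like the other lists, they were chosen with earlier results of these data known. Their counts beside the shares of all genes are therefore descriptive and no independent test. Of 6 tested genes listed as liver X receptor targets, 4 were called higher in UPBIG than in DOWN and than in UPSMALL. The shares of all genes were 9.03% and 3.22%, and the medians of the 6 were 1.83 and 1.5. The 4 were Apoc1 (4.65 ± 0.21 against DOWN), the cholesterol exporters Abca1 (2.59 ± 0.17) and Abcg1 (1.89 ± 0.14) and the E3 ligase gene Mylip (1.78 ± 0.19). Smpdl3a, at 0.12 ± 0.12, and Apoe, at 0.01 ± 0.22, were not called. Whether each listed gene is a target in these mouse cells was not tested. All 9 genes of sterol synthesis and LDL uptake were called lower in both comparisons, against 8.48% and 2.49% of all genes, with a median of -2.29 in each. Fdft1, squalene synthase, was at -2.29 ± 0.14 in both, Cyp51, a sterol demethylase, at -3.11 ± 0.23 and -2.82 ± 0.23, and Sqle, squalene epoxidase, at -3.14 ± 0.25 and -3.01 ± 0.25. Between UPSMALL and DOWN, Apoc1 was the pathway gene called, higher by 1.81 ± 0.19 (edgeR adjusted p = 5.09e-05). Scd1 and Apoc1 were thus the genes of the family and the pathway lists called higher in each of the 3 comparisons.

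**Figure D4:**
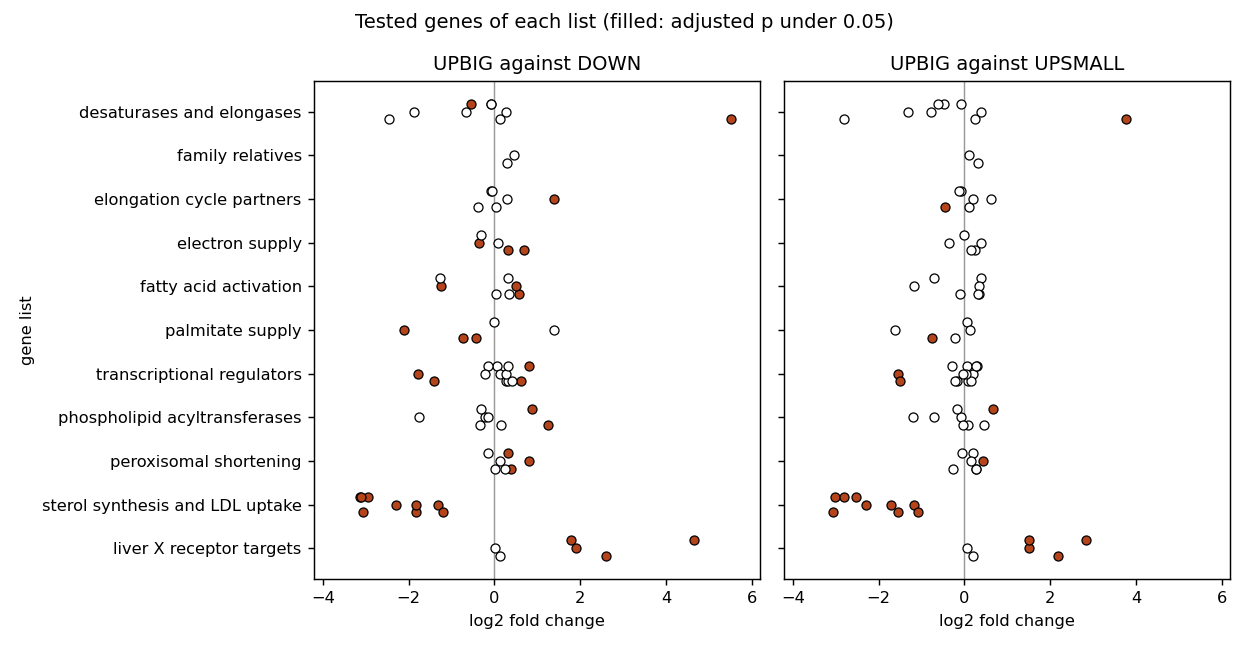
Log2 fold change of each tested gene (horizontal axes) in 11 gene lists, UPBIG against DOWN on the left and UPBIG against UPSMALL on the right; filled points passed an adjusted p of 0.05. Scd1 is the filled point at 5.52 and 3.77 in the top row. All 9 sterol genes are filled left of 0 in both panels, and 4 of 6 genes listed as liver X receptor targets right of it. The lists were chosen with earlier results of these data known.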

How the data were processed

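The deposited values are expected counts per gene and library, estimated by the authors with RSEM from STAR alignments to mm10, per the submitters' processing notes; the sources used here name no versions, annotation or strand setting. Of the values, 13.8% are not whole, and they were rounded. Symbols and exon lengths came from GENCODE for GRCm38, and 26775 identifiers matched. All 12 libraries were fitted in edgeR 4.0.16 (R 4.3.3; TMM scaling, filterByExpr, robust quasi-likelihood, no block), with a standard error equal to the log2 fold change over the square root of F. CPM uses TMM-scaled totals. Ratios use 0.5 added counts. Alternatives were DESeq2 1.42.0, limma-voom with quality weights (limma 3.58.1), median-ratio factors, library totals alone, no filter, 5 CPM in 4 libraries, a replicate block, only the 8 libraries compared and each library left out. Methods were tested on simulated data. The genes and the 10 pathway and 8 marker lists were chosen with earlier results of these data known. Named were all 9 genes, up to 3 called genes per list and direction, and all tested relatives and regulators. The 5 nearest patterns of genes called jointly were named too. Acaca, Me1, Tecr, Mylip, Smpdl3a, Apoe and the markers named were added with their values seen. Replicates of a group differed by more than sampling noise. A gene of the pathway lists is not reported here.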

Additional observations from a re-analysis of the deposited data

Results flagged for a closer look

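Of 27 sets of 4 libraries, 1 gene in 1 group each, 2 had a library far from the other 3 by Dixon's criterion, which chance alone flags in about 1 of 20 sets. Fads3 had 0 CPM in UPBIG replicate 4, against 0.897 to 1.05 CPM in the other UPBIG libraries. Elovl1 stood at 87.3 CPM in DOWN replicate 4, against 135 to 143 CPM in the other DOWN libraries.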

How the results depend on the processing

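The Scd1 calls kept direction and threshold in all alternatives run, at 5.19 to 5.62 for UPBIG against DOWN, 3.47 to 3.89 for UPBIG against UPSMALL, 1.63 to 1.85 for UPSMALL against DOWN and -1.12 to -0.88 for the midpoint test. Fads1 stayed called between UPBIG and DOWN in all 20 (-0.88 to -0.46). The number of genes called between UPBIG and DOWN was 2, and 4 with library totals alone and with DESeq2, which added Fads2 and Elovl6. With limma-voom, no low-count filter or the replicate block, Elovl6 alone was added. Elovl6 was also added without UPBIG replicate 1, UPSMALL replicate 4 or DOWN replicate 4, and Fads2 without UPBIG replicate 3. Between UPBIG and UPSMALL the number called was 1, and 3 with library totals alone and with DESeq2. There it was 2 with limma-voom and 2 with 5 CPM in 4 libraries. Leaving out 1 library gave 1 to 2 there (2 without UPBIG replicate 3, which added Scd2) and 1 to 2 in the joint test. With library totals alone Scd2 was -0.05 and Elovl5 -0.21 between UPBIG and DOWN, and Elovl5 -0.04 between UPBIG and UPSMALL. Without 1 library, differences near 0 changed sign: Elovl1 ranged from -0.27 to 0.07 between UPBIG and DOWN and from -0.31 to 0.10 between UPBIG and UPSMALL, Elovl7 from -0.38 to 0.28 between UPBIG and DOWN, and the log2 ratio of Elovl5 to Elovl1 from -0.45 to 0.16 between UPSMALL and DOWN. The cause was not tested. Fads2, Fads3 and Elovl6 were not tested under the filter of 5 CPM in 4 libraries, nor Fads2 in the fit of the 8 UPBIG and DOWN libraries; counts of 0 to 46 per library limit Fads2.

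The labels do not say whether libraries with the same replicate number are pairs. Their deviations from the group means correlated at -0.03 to 0.15, over 0.1 in 5 of 12 pairs. For libraries of different groups and different numbers the correlations were -0.12 to 0.11. Among these, only UPBIG 3 with UPSMALL 4 and UPBIG 4 with UPSMALL 3 were over 0.1, at 0.11 each. What the number stands for was not tested. With a replicate block the Scd1 log2 fold change between UPBIG and DOWN was 5.52 and that of Fads1 -0.56. Elovl6 was called there (-2.10, edgeR adjusted p = 0.0156). Over all genes the calls between UPBIG and DOWN became 2607, against 2210 without the block. Between UPBIG and UPSMALL they became 1025, against 720, and between UPSMALL and DOWN 275, against 144. The main fit and the permutation tests used no block.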
